A study of Homo sapiens with 6 samples.

Results

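Host genes of small RNAs are long transcripts that carry snoRNAs, mostly in their introns, or miRNAs, in introns or exons. They were chosen here by symbol from the gene column of the count files: SNHG followed by a number, GAS5, DANCR and EPB41L4A-AS1 as snoRNA hosts, and MIR followed by letters or digits and HG as miRNA hosts. TUG1, MALAT1 and NEAT1, long non-coding RNAs that work as whole transcripts, were added as another class. The rule gave 103 of the 47470 listed genes, of which 32 were snoRNA hosts, 68 were miRNA hosts and 3 were TUG1, MALAT1 and NEAT1. The rule used no measured value. RNA was sequenced from HEK293T, a human embryonic kidney cell line transformed with adenoviral DNA that carries the SV40 large T antigen. Cells were left untreated or kept for 1 day in valproic acid (VPA) at 1 mM, a drug that inhibits histone deacetylases. Each condition has 3 libraries, made from total RNA with a strand-specific mRNA protocol. The labels do not say that the libraries of a condition came from separate cultures, so the p-values measure the spread between these libraries, which may be technical.

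A snoRNA host is usually transcribed by RNA polymerase II, spliced, and then divided: the intron is trimmed to a snoRNA that guides the chemical modification of ribosomal RNA, and the joined exons, which mostly code for no protein, are exported and often removed by nonsense-mediated decay. Many of these hosts start like ribosomal protein genes, with a C followed by a run of pyrimidines, the terminal oligopyrimidine or TOP motif. In a miRNA host, Drosha cuts a hairpin out of the transcript in the nucleus, so the host RNA is a precursor, and its level is not that of the mature miRNA, which was not measured here. A host count from mRNA libraries is mostly a count of the spliced or polyadenylated host.

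The mature miRNAs of MIR17HG, MIR99AHG and MIR924HG, the miRNA hosts that passed the test, are shown first, with the seed, bases 2 to 8, in capitals. MIR17HG on the plus strand of chromosome 13 carries the miR-17-92 cluster, whose 6 products fall into seed families, and the sequences are those of RefSeq on GRCh38.p14.
hsa-miR-17-5p, chr13:91350618-91350640: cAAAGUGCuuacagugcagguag
hsa-miR-20a-5p, chr13:91351072-91351094: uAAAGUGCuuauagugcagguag
hsa-miR-18a-5p, chr13:91350756-91350778: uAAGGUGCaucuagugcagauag
hsa-miR-19a-3p, chr13:91350939-91350961: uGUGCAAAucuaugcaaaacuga
hsa-miR-19b-3p, chr13:91351245-91351267: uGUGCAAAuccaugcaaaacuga
hsa-miR-92a-3p, chr13:91351361-91351382: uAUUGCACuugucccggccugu
The seed AAAGUGC is shared by miR-17-5p and miR-20a-5p, and GUGCAAA by miR-19a-3p and miR-19b-3p. MIR99AHG on the plus strand of chromosome 21 carries the cluster of miR-99a, let-7c and miR-125b, which have no seed in common.
hsa-miR-99a-5p, chr21:16539101-16539122: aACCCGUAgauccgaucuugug
hsa-let-7c-5p, chr21:16539838-16539859: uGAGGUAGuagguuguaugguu
hsa-miR-125b-5p, chr21:16590253-16590274: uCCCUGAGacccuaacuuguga
MIR924HG on the minus strand of chromosome 18 carries miR-924.
hsa-miR-924, chr18:39622153-39622172: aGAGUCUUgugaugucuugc

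The first 25 bases of snoRNA hosts are shown because this class moved together and its members are known for pyrimidine starts. A match was counted where the RefSeq start was C and the run of C and T from it was at least 5 bases on the transcribed strand, and an uninterrupted run of C and T from a starting C is in capitals.
SNHG12, minus strand, chr1:28581849-28581873: CCTTTCTCCCCgccgcattcccggt
SNHG4, plus strand, chr5:139274101-139274125: CCCTTTCCCCTCCggcctctgccgg
SNHG32, plus strand, chr6:31834916-31834940: CTTTTTgcgaagtgggctcgtgggt
SNHG5, minus strand, chr6:85678709-85678733: CTTTTacgtcggccttcgcgagcgt
SNHG19, minus strand, chr16:2155334-2155358: CTTTTCggggtcgagtccgaggggg
SNHG1, minus strand, chr11:62855861-62855885: CTCatttttctactgctcgtggtaa
SNHG29, plus strand, chr17:16438987-16439011: ggattgggatattccgactccttaa
DANCR, plus strand, chr4:52712394-52712418: gcccttgcccagagtcttcccggga
SNHG30, plus strand, chr17:35568114-35568138: gagccgggcggagaagcaaaggaga
SNHG12, SNHG4, SNHG32, SNHG5 and SNHG19 matched, which is 5 of the 22 tested snoRNA hosts with a start sequence, or 22.7%. The share was 5.16% of 11739 tested genes, 67.8% of 59 tested ribosomal protein genes and 5.56% of 18 tested miRNA hosts, where MIR762HG was the single match. SNHG29 and DANCR had no such run at the RefSeq start, and SNHG1 had a run of 3 bases. The match depends on the exact base that RefSeq gives as the start.

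Counts on genes totalled 18622267 to 18828495 per library, so depth hardly differed. After low counts were filtered out, 15298 genes entered edgeR's quasi-likelihood test, with Benjamini-Hochberg adjustment over all of them and a threshold of 0.05. Normalized counts are TMM-normalized counts scaled to the mean library, and a log2 fold change is VPA over untreated. Of the 103 members 49 were tested, 21 had too few counts and 33 were at 0 in every library, which on chromosomes with counts allows up to 3 counts per library. All 7 genes listed as markers of HEK293T (vimentin, keratin, PAX and neurofilament genes) had counts, with a sum of 16610 to 16908 counts in untreated and 21452 to 22704 in VPA-treated libraries. Marker sums of muscle were 7 to 10 and 65 to 84 counts, of endothelium 0 to 4 and 18 to 25, of blood 15 to 25 and 30 to 42, and of liver 0 to 3 and 1 to 2, with no marker at 0 throughout. The part of these markers in the results was not tested.

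The snoRNA hosts fell as a class. Of the 25 tested, 21 were lower in VPA-treated cells, 1 was higher and 3 did not pass the test, while 30.0% of all tested genes were lower and 32.9% higher. The class was set by symbol, and by RefSeq position a snoRNA lay inside 26 of its 32 members. None was placed inside the tested SNHG10, SNHG20 and SNHG21, and SNHG20 is among the 21 lower. The median log2 fold change was -0.36, with quartiles of -0.45 and -0.30, and that of all tested genes was 0.0058. The decreases were moderate, from -0.63 in SNHG12 to -0.21 in DANCR, so no tested member reached the study's fold threshold of 1 on the log2 scale, which with the adjusted p was passed by 12.0% of all genes upward and 0.503% downward. In 20 of the 25 every VPA library was below every untreated one, against 31.0% of all genes. In 1 of the 25 every VPA library was above, against 34.8%. All 32 snoRNA hosts, tested or not, together summed to 23256 ± 558 normalized counts without VPA and 18011 ± 536 with it (SD, n = 3 each), 22.6% less. SNHG29 was the largest part, with means of 5966 and 4653. Of raw counts on genes the class made up 0.115% to 0.121% untreated and 0.0974% to 0.103% after VPA, a smaller decrease. The size thus depends on the scaling. In bulk RNA a lower count can come from less RNA per cell or from fewer cells that express the gene, and these cannot be told apart.

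The scaling of the libraries sets how many of these decreases pass. The median of all tested genes moved from 0.0058 with TMM to 0.071 with the upper quartile, 0.14 with library totals and 0.28 when ribosomal protein genes were held level, and the share of higher genes among all called genes moved from 52.3% to 63.0%, 73.9% and 91.7%. The number of snoRNA hosts that were lower went from 21 to 17, 16 and 8 in the same order, and DESeq2 called 17. The share of lower genes among all called genes fell with the same scalings. These counts alone therefore do not place the class against all genes. The 8 that passed against ribosomal protein genes, themselves lower with a median of -0.26, were SNHG12, SNHG15, SNHG17, GAS5, SNHG1, SNHG6, SNHG32 and SNHG4. The abundant SNHG29 (-0.085), SNHG16 (-0.037), SNHG3 (-0.037) and SNHG5 (-0.035) did not pass there, and 19 of the 25 had a negative log2 fold change. The median of the class stayed 0.36 below that of all tested genes under each scaling, since a scaling shifts all genes alike.

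**Figure D1:**
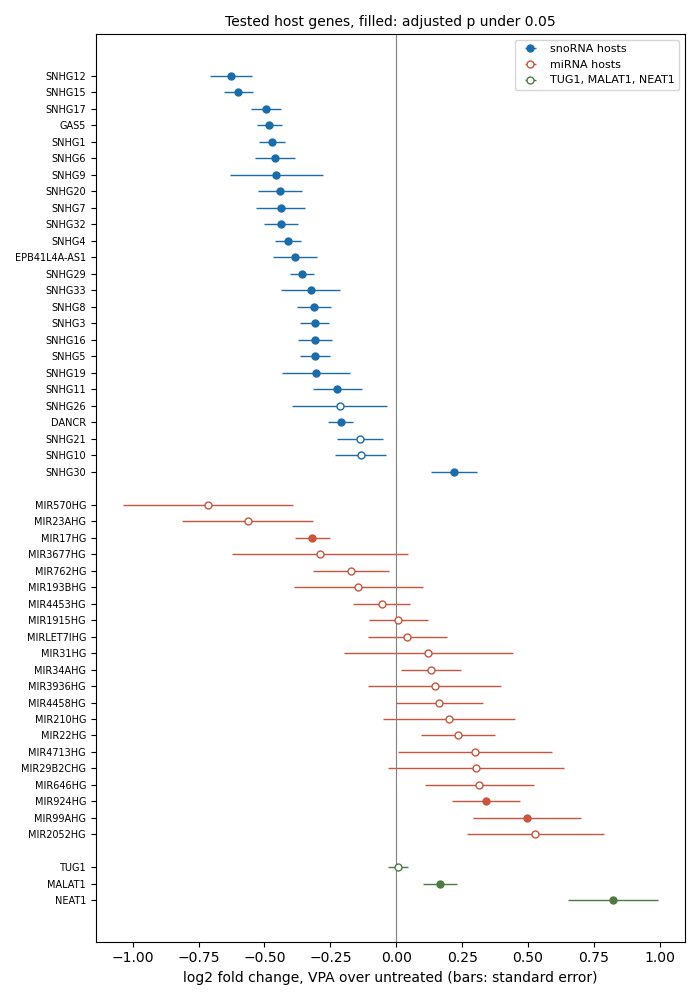
Log2 fold change of VPA over untreated for the 49 tested members, one line per gene, as points with standard errors from edgeR, coloured by class, with filled points for an adjusted p under 0.05. Nearly all snoRNA hosts lie left of 0, from -0.63 to 0.22, while miRNA hosts lie on both sides with wider bars.

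The largest decrease was in SNHG12, the host of SNORA16A, SNORA44, SNORA61 and SNORD99. It had 326, 314 and 299 normalized counts untreated and 191, 209 and 208 after VPA, a log2 fold change of -0.63 (SE 0.080, adjusted p = 7.0e-07, edgeR). The groups did not overlap, and the mean was 35.2% lower. SNHG15, the host of SNORA9, had 1089, 1011 and 1036 normalized counts untreated and 651, 728 and 692 after VPA. Its log2 fold change was -0.60 (SE 0.056, adjusted p = 5.71e-09, edgeR), with a wide gap between the groups.

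SNHG17 is the host of SNORA71A, SNORA71B, SNORA71C and SNORA71D, H/ACA snoRNAs that guide pseudouridylation. It had 698, 701 and 680 normalized counts untreated and 485, 514 and 476 after VPA, a log2 fold change of -0.49 (SE 0.058, adjusted p = 1.96e-07, edgeR). GAS5, named growth arrest-specific for its accumulation in arrested cells, holds 11 annotated snoRNAs, the most of the hosts that were tested. GAS5 had 1354, 1330 and 1295 normalized counts untreated and 931, 973 and 947 after VPA, a log2 fold change of -0.48 (SE 0.048, adjusted p = 1.62e-08, edgeR). SNHG1, with 8 C/D snoRNAs, was nearly as consistent. Its normalized counts were 2284, 2559 and 2538 untreated and 1720, 1831 and 1773 after VPA, a log2 fold change of -0.47 (SE 0.048, adjusted p = 2.50e-08, edgeR). Neither GAS5 nor SNHG1 had overlapping groups.

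The most abundant snoRNA host was SNHG29, which holds SNORD49A, SNORD49B and SNORD65. It had 6030, 6190 and 5677 normalized counts untreated and 4955, 4577 and 4426 after VPA, a log2 fold change of -0.36 (SE 0.046, adjusted p = 6.66e-07, edgeR). SNHG16, the host of the SNORD1 genes, had 2032, 2006 and 1740 normalized counts untreated and 1574, 1674 and 1415 after VPA (log2 fold change -0.31). In both genes the lowest untreated library was above the highest VPA library, in SNHG16 by a small margin.

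DANCR, a host of SNORA26 known for holding back differentiation of progenitor cells, changed least among the hosts that fell. It had 1534, 1602 and 1572 normalized counts untreated and 1432, 1286 and 1349 after VPA, a log2 fold change of -0.21 (SE 0.048, adjusted p = 0.000675, edgeR). Its direction turned to 0.063 when ribosomal protein genes were held level. SNHG4, which holds genes of the SNORA74 family, had 1418, 1466 and 1479 normalized counts untreated and 1096, 1150 and 1036 after VPA (log2 fold change -0.41). SNHG5, the host of the SNORD50 pair, had 1472, 1314 and 1334 untreated and 1046, 1192 and 1090 after VPA (log2 fold change -0.31). SNHG3, the host of the U17 snoRNAs SNORA73A and SNORA73B, had 1213, 1140 and 1114 untreated and 966, 977 and 854 after VPA (log2 fold change -0.31). None of these 3 genes had overlapping groups.

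Among the other hosts that were lower, SNHG6, SNHG9, SNHG20, SNHG7 and SNHG32 had log2 fold changes between -0.46 and -0.44, and EPB41L4A-AS1, SNHG33, SNHG8, SNHG19 and SNHG11 between -0.38 and -0.22. The calls of SNHG9, SNHG11, SNHG19 and SNHG33 are the weakest. SNHG19 had overlapping groups and lost its call without any 1 of 5 libraries, untreated 3 being the exception, with adjusted p-values of 0.053 to 0.35 (edgeR). SNHG11 lost it without any untreated library or VPA 2 or VPA 3 (0.050 to 0.21), SNHG9 without untreated 1, VPA 2 or VPA 3 (0.073 to 0.22) and SNHG33 without untreated 1 (0.086). DESeq2 did not call these 4 genes.

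SNHG30, the host of SNORD7, went the other way. It had 188, 197 and 194 normalized counts untreated and 216, 242 and 216 after VPA, a log2 fold change of 0.22 (SE 0.087, adjusted p = 0.0328, edgeR). The groups did not overlap, but the call was lost without any 1 of the untreated libraries or VPA 2 (adjusted p 0.064 to 0.16) and without the filter on low counts (0.086), and was not made by DESeq2 (adjusted p = 0.229). SNHG10, SNHG21 and SNHG26 had log2 fold changes of -0.14, -0.14 and -0.21 with overlapping groups and adjusted p-values of 0.235, 0.170 and 0.311 (edgeR), and each turned positive when ribosomal protein genes were held level. Leaving out VPA 1 brought SNHG10 to an adjusted p of 0.019 (edgeR).

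**Figure D2:**
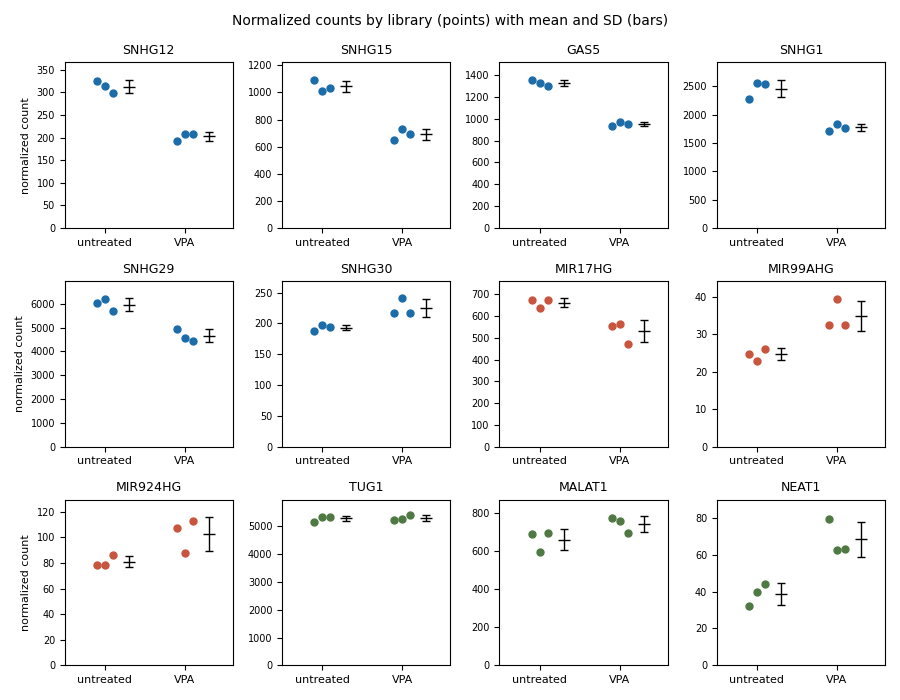
Normalized counts of 12 members in each library as points, untreated on the left and VPA on the right of each panel, with mean and SD (n = 3 each) as bars beside them; each vertical axis starts at 0. SNHG12, SNHG15, GAS5, SNHG1, SNHG29 and MIR17HG show a gap downward, NEAT1 a gap upward with means of 38.6 and 68.4, and TUG1 overlapping ranges of 5177 to 5351 and 5229 to 5412.

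Several hosts share exons with other genes in GENCODE 44, and the strand setting of the counting is not given in the sources used here. SNHG3 shares exons on the same strand with RCC1, SNHG4 with MATR3 and SNHG20 with SEC14L1. SNHG12 lies opposite TRNAU1AP, SNHG29 opposite LRRC75A, GAS5 opposite GAS5-AS1 and EPB41L4A-AS1 opposite EPB41L4A. Reads in such stretches may have been set aside as ambiguous or, if strand was ignored, cannot be told apart.

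The small RNAs inside the hosts have lines of their own in the count files. For box C/D snoRNAs, which guide methylation of the ribose, 3 that fell are shown, with the box C letters TGATGA and the box D letters CTGA in capitals; the sequence is from hg38, on the minus strand.
SNORD80 in GAS5, chr1:173864833-173864903: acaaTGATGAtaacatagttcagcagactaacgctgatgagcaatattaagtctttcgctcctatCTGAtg
SNORD74 in GAS5, chr1:173867674-173867745: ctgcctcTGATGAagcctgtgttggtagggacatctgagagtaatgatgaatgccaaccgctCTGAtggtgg
SNORD31 in SNHG1, chr11:62853326-62853393: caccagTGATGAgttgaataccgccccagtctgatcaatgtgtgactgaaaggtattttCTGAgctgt
Of 142 snoRNA genes inside snoRNA hosts, 83 lie in SNHG14, the host of the imprinted SNORD115 and SNORD116 clusters, and were at 0 in every library like SNHG14 itself. Of the other 59, 52 had counts and 25, in 12 hosts, were tested.

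All 25 tested snoRNAs had a negative log2 fold change, with a median of -0.53 and a range from -0.91 to -0.21. The test was passed by 10 of the 25, in 7 hosts, and all 10 were lower, beside 30.0% of all tested genes. A mean under 10 normalized counts after VPA alone was found in 4 of the 25, with 1 of the 10 among them, and such lines may have entered the test through the untreated group. Among the 20 with at least 10 counts in every library, all had a negative log2 fold change and 8 were lower. SNORD80 had 146, 147 and 116 counts untreated and 84, 116 and 105 after VPA, a log2 fold change of -0.54 (SE 0.13, adjusted p = 0.000947, edgeR). Its raw counts touch at 116, and its normalized counts did not overlap. SNORD31 had 76, 73 and 73 counts untreated and 52, 59 and 55 after VPA, a log2 fold change of -0.54 (SE 0.14, adjusted p = 0.00199, edgeR), close to the -0.47 of its host SNHG1. SNORA9 had 99, 106 and 84 counts untreated and 82, 69 and 67 after VPA, a log2 fold change of -0.53 (SE 0.14, adjusted p = 0.00188, edgeR), beside -0.60 in its host SNHG15.

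SNORA73A, a U17 snoRNA that takes part in the cutting of ribosomal RNA, had a larger decrease than its host. It had 51, 56 and 45 counts untreated and 33, 38 and 26 after VPA, a log2 fold change of -0.77 (SE 0.19, adjusted p = 0.00112, edgeR) beside -0.31 in SNHG3. SNORA26, with 17, 12 and 11 counts untreated and 8, 9 and 6 after VPA, had -0.91 (SE 0.35) beside -0.21 in DANCR. It is the called line that entered through its untreated counts, so its size is no measure of the class. The difference between a snoRNA and its host was not tested. Libraries made for mRNA hold few short RNAs, and reads of a snoRNA cannot be told apart from those of the unspliced host or of an isoform that retains the intron: 47 of the 59 overlap an exon of some GENCODE transcript. A further 77 snoRNA and scaRNA lines not placed inside a member by RefSeq position were tested. Of these 18 were lower and 0 higher, beside 30.0% and 32.9% of all tested genes, and the median was -0.29. Some may still overlap a member, since GENCODE exons of SNHG10 and SNHG20 overlap SCARNA13 and SCARNA16. With ribosomal protein genes held level, 91.7% of all called genes were higher, and 1 of the snoRNAs inside the hosts was lower. With DESeq2 5 of these snoRNAs were lower.

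**Figure D3:**
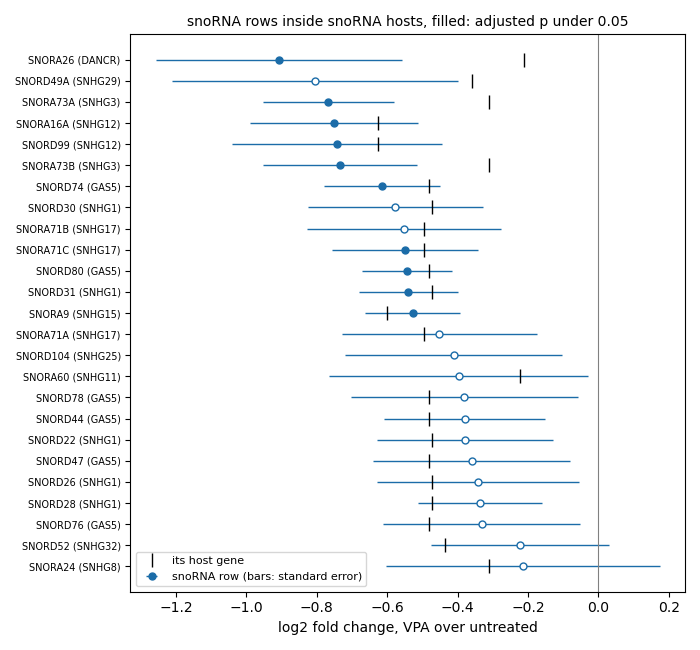
Log2 fold change of VPA over untreated for the 25 tested snoRNAs inside snoRNA hosts, as points with standard errors, filled for an adjusted p under 0.05, and that of the host as a vertical mark (none for SNHG25, which was not tested). Every snoRNA lies left of 0, between -0.91 and -0.21.

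The miRNA hosts did not move as a class. Of the 21 tested, 2 were higher, 1 was lower and 18 did not pass, and the log2 fold change was positive in 14 and negative in 7, with a median of 0.13. Both shares, 9.52% higher and 4.76% lower, are below the 32.9% and 30.0% of all genes. Most miRNA hosts had few counts: the median level was 29.8 normalized counts, against 373 for the snoRNA hosts, and the median standard error was 0.21 against 0.076. Among members whose mean level reached 100 normalized counts, 1 of 4 miRNA hosts and 20 of 23 snoRNA hosts were lower, where 38.8% of all such genes were lower and 28.7% higher.

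MIR17HG was the exception in level and in precision. Its normalized counts were 673, 638 and 672 untreated and 553, 565 and 473 after VPA, a log2 fold change of -0.32 (SE 0.066, adjusted p = 0.000265, edgeR). The groups did not overlap. The mean of this host of the miR-17 and miR-19 seed families shown above was 19.8% lower, while the lines of its 6 miRNAs were at 0 in every library. With ribosomal protein genes held level MIR17HG did not pass, with -0.045.

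MIR99AHG, the host of miR-99a, let-7c and miR-125b, had 24.8, 23.0 and 26.2 normalized counts untreated and 32.6, 39.5 and 32.5 after VPA. Its log2 fold change was 0.49 (SE 0.20, adjusted p = 0.0397, edgeR). MIR924HG had 78.6, 78.4 and 86.0 untreated and 107, 87.6 and 113 after VPA, a log2 fold change of 0.34 (SE 0.13, adjusted p = 0.0270, edgeR). Neither gene had overlapping groups, but both calls are marginal. That of MIR99AHG was lost without any 1 library except VPA 1 (adjusted p 0.051 to 0.16) and without the filter on low counts (0.090), that of MIR924HG without untreated 1, untreated 2, VPA 1 or VPA 3 (0.068 to 0.13), and DESeq2 made neither (0.263 and 0.190).

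MIR570HG, MIR23AHG and MIR2052HG had larger estimates and did not pass. MIR23AHG, the host of the miR-23a, miR-27a and miR-24 cluster, had 35.2, 25.1 and 22.0 normalized counts untreated and 20.1, 15.4 and 20.1 after VPA, a log2 fold change of -0.56 (SE 0.25, adjusted p = 0.0529, edgeR). Its adjusted p was 0.026 without untreated 3 and 0.046 with DESeq2 size factors. MIR570HG had 13.4, 12.5 and 19.9 untreated and 8.62, 9.62 and 9.57 after VPA, a log2 fold change of -0.72 (SE 0.32, adjusted p = 0.0588, edgeR). MIR2052HG had a log2 fold change of 0.53 (SE 0.26, adjusted p = 0.0882, edgeR). In all 3 genes the groups did not overlap, at counts too low to be precise, and MIR570HG had a mean under 10 after VPA. Among the 21 tested miRNA hosts the groups lay apart downward in 4 and upward in 4. The shares of all genes were 31.0% and 34.8%.

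Other hosts of well-known miRNAs had small estimates. MIR22HG had a log2 fold change of 0.23 (SE 0.14), MIR34AHG, the host of the p53 target miR-34a, of 0.13 (SE 0.11), MIR210HG, the host of the hypoxia-responsive miR-210, of 0.20 (SE 0.25) and MIRLET7IHG of 0.043 (SE 0.15). The miRNA lines themselves were mostly empty: of 110 inside the miRNA hosts 17 had counts and 2 were tested. MIR762 had a log2 fold change of -0.32 (SE 0.28) and MIR570 of -0.026 (SE 0.31), with overlapping groups.

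Of the 68 miRNA hosts 30 were at 0 in every library, among them MIR100HG, MIR137HG, MIR155HG and MIRLET7BHG. The 4 on chromosome X are MIR222HG, MIR223HG, MIR325HG and MIR503HG, and the count files list every gene of that chromosome at 0, so these hosts were not measured. A further 17 miRNA hosts and 4 snoRNA hosts had counts under the filter, at most 48 and 35 in all 6 libraries together. Without the filter edgeR called some of them. MIR3171HG had 5, 2 and 2 counts untreated and 8, 15 and 11 after VPA (log2 fold change 1.74, adjusted p = 0.0026, edgeR without a filter). MIR3659HG had 5, 5 and 3 counts untreated and 15, 12 and 8 after VPA (1.26, adjusted p = 0.020, same test). MIR497HG, the host of the miR-195 and miR-497 pair, had 16, 12 and 6 counts untreated and 7, 5 and 2 after VPA (-1.40, adjusted p = 0.0072, same test). MIR548A1HG had 0 counts untreated and 7 after VPA in all, and SNHG28 had 7 and 22. These counts are too low for a stable size, and of these 5 genes DESeq2 called MIR3171HG alone (adjusted p = 0.044).

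NEAT1, the RNA scaffold of paraspeckles, had the largest rise of the tested members. It had 32.1, 39.7 and 44.1 normalized counts untreated and 79.5, 62.6 and 63.1 after VPA, a log2 fold change of 0.82 (SE 0.17, adjusted p = 0.000248, edgeR). The groups did not overlap, and DESeq2 called it too (adjusted p = 0.0055). MALAT1, an abundant nuclear RNA of splicing speckles, had 689, 596 and 693 normalized counts untreated and 772, 756 and 694 after VPA. Its log2 fold change was 0.17 (SE 0.064, adjusted p = 0.0277, edgeR), and the highest untreated and lowest VPA library nearly touch. The call was lost without untreated 2, VPA 1 or VPA 2 (adjusted p 0.093 to 0.24) and with DESeq2 (0.158). TUG1, known for roles in chromatin and in neural cells, had 5177, 5338 and 5351 normalized counts untreated and 5229, 5286 and 5412 after VPA, a log2 fold change of 0.0056 (SE 0.039, adjusted p = 0.911, edgeR). The groups of TUG1 overlap over most of their range, and its direction follows the scaling: it was -0.0082 with DESeq2 size factors and passed as higher with library totals (0.14) and with ribosomal protein genes held level (0.28).

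**Figure D4:**
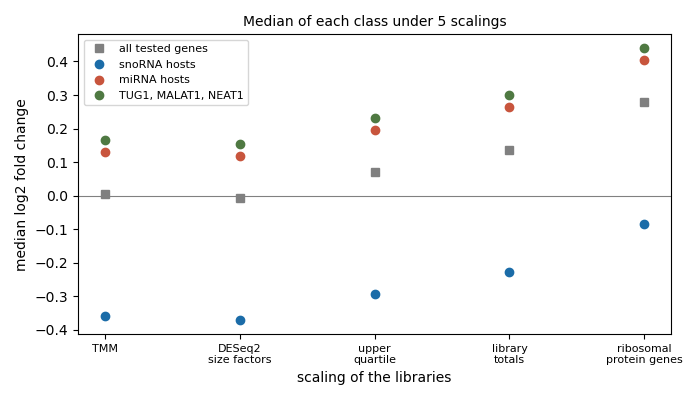
Median log2 fold change of each class and of all tested genes (squares) under 5 scalings of the libraries. The snoRNA hosts stay below all tested genes and below 0 in each, between -0.37 with DESeq2 size factors and -0.085 against ribosomal protein genes, while the median of all genes lies between -0.0081 and 0.28.

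Levels between genes were compared per kilobase of the Ensembl canonical transcript, after scaling to reads per 1e6 counts on tested genes, for the 47 tested members with such a length. The levels and their order rest on that length, which can be a poor match to the counted gene. It was 6166 bases for SNHG8, with a RefSeq span of 1062, and 10434 for MALAT1, with a span of 8779. In untreated cells SNHG29 was at 720, SNHG16 at 207, SNHG1 at 113 and GAS5 at 92.3 on this scale, and after VPA at 561, 167, 81.6 and 66.1, so their order was the same. MIR17HG stood at 47.3 and 37.9, between SNHG5 (55.8 and 45.1) and SNHG20 (38.9 and 28.6). TUG1 stood at 37.8 and 38.0, and the next miRNA host, MIR1915HG, at 11.9 and 12.0. MALAT1 was at 3.38 and NEAT1, over the length of its long isoform, at 0.091 in untreated cells. The long isoform of NEAT1 and mature MALAT1 end without a poly(A) tail, and how far the mRNA libraries captured them was not tested.

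The machinery around these RNAs was described with lists of related genes, nearly all well counted. Their counts stand beside the 38.8% lower and 28.7% higher among all genes with a mean of 100 normalized counts or more. All 38 tested protein-coding snoRNA hosts, mostly ribosomal protein and translation genes, were lower, with a median log2 fold change of -0.27. The range was from -0.62 (SE 0.15) in RPL17 to -0.14 in RPLP2. RPL17 had means of only 112 normalized counts untreated and 72.5 after VPA, far below the other ribosomal protein genes of the list. The ribosomal protein genes as a whole had 71 of 75 lower. Of 18 snoRNP proteins and assembly factors 14 were lower and 1 higher, with a median of -0.19; the ends were COIL, the marker protein of Cajal bodies, at -0.59 and PIH1D1, an assembly factor, at 0.10. Of 15 genes of nonsense-mediated decay, which removes spliced snoRNA hosts, 13 were lower, with a median of -0.32, led by SMG9 at -0.56. Of 12 paraspeckle protein genes 11 were lower, with a median of -0.29, led by RBM14 at -0.54, beside the higher NEAT1. The snoRNP, decay and paraspeckle lists held 19, 16 and 13 genes. Those of protein-coding snoRNA hosts and miRNA hosts held 39 and 28, so not every listed gene was tested. Genes of chromosome X, at 0 in the count files, could not be. Of 14 genes of miRNA processing and silencing 7 were lower and 1 higher, with a median of -0.11, from TARBP2, a partner of Dicer, at -0.62 to AGO4 at 0.30. That share of lower genes is near the share among all well-counted genes. Protein-coding miRNA hosts were mixed: of 19 tested 7 were higher and 5 lower, from SLIT2 at -1.06 to SLIT3 at 2.24. Against ribosomal protein genes the medians of the protein-coding snoRNA hosts, the snoRNP genes and the miRNA processing genes turned positive, at 0.0056, 0.084 and 0.16. Many of the protein-coding snoRNA hosts are themselves ribosomal protein genes used for that scaling. Their median was therefore held near 0 in advance, and its sign says nothing about the hosts.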

How the data were processed

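The deposited values are raw counts of reads per gene, made by the authors from strand-specific mRNA libraries. Per the labels' processing notes, reads were aligned to hg38 with STAR 2.7.10b and counted with HTSeq 2.0.1; the annotation and the strand setting are not given in the sources used here. The authors set aside reads with several alignments, so members of near-identical snoRNA families are undercounted. The 5 summary lines of the counting were left out: per library 6.80% to 7.69% of reads were off genes, 1.97% to 2.10% ambiguous and 2.81% to 2.92% without a unique place.

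The test was that of edgeR 4.0.16 under R 4.3.3 (TMM, filterByExpr with a count minimum of 10, robust quasi-likelihood model with only condition in it, prior count 0.125), with Benjamini-Hochberg adjustment over 15298 genes. Standard errors were computed as the size of the log2 fold change over the square root of F. The biological coefficient of variation was 3.83%. The procedure was tested on simulated counts. The alternatives were DESeq2 1.42.0, 4 other scalings, 2 other filters, a prior count of 2, a replicate block and leaving out each library. The snoRNAs inside the hosts were added after seeing the data. Positions and sequences are from RefSeq (GRCh38.p14, 102 of 103 members) and hg38, and lengths and overlaps from GENCODE 44.

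The members and lists were chosen with earlier results of these data known. Values in every library were to be given for the 10 tested members with the most counts and for the 5 largest increases and decreases past the adjusted p in each class. From each list at most the largest increase and decrease were to be named. Every member could be named. An interval or a limit on a count of 0 covers counting error only.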

Additional observations from a re-analysis of the deposited data

How the results depend on the processing

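Counts near 30 per library limit the miRNA hosts. Over 52 genes and 773 comparisons with an alternative, 661 kept direction and call, 68 lost a call, 14 gained one and 30 changed sign; causes were not tested. With ribosomal protein genes held level, 91.7% of all called genes were higher. There 8 snoRNA hosts were lower (21 with TMM), 8 miRNA hosts higher and 0 lower, and 1 snoRNA line lower. DANCR (0.063), SNHG10 (0.14), SNHG11 (0.050), SNHG21 (0.14), SNHG26 (0.059), MIR193BHG (0.13), MIR4453HG (0.22) and MIR762HG (0.10) changed sign. So did the medians of snoRNP genes (0.084) and miRNA processing genes (0.16). That of protein-coding snoRNA hosts (0.0056) changed sign too, but the scaling held it near 0, since many of them are ribosomal protein genes. With library totals 4 miRNA hosts were higher, and MIR4453HG (0.076) and miRNA processing (0.017) changed sign; with the upper quartile MIR4453HG did (0.0099). DESeq2 gave 0 snoRNA hosts higher, 1 miRNA host higher (MIR3171HG, outside edgeR's filter), 1 of TUG1, MALAT1 and NEAT1 higher and 5 snoRNA lines lower. MIR1915HG and TUG1 changed sign with DESeq2 (-0.016, -0.019), its size factors (-0.0056, -0.0082) and no filter (-0.013, -0.016). The size factors gave 2 miRNA hosts lower, and no filter gave 4 higher and 2 lower. Leaving out 1 library gave 17 to 21 snoRNA hosts lower, 0 to 1 higher (0 without any untreated library or VPA 2), 1 to 2 miRNA hosts higher (1 without VPA 2 or VPA 3) and 1 to 3 lower (3 without untreated 3, 2 without VPA 1 or VPA 2), 1 to 2 of TUG1, MALAT1 and NEAT1 higher (1 without untreated 2, VPA 1 or VPA 2) and 8 to 11 snoRNA lines lower. It changed the sign of MIR1915HG (-0.042 to 0.095), MIR193BHG (-0.26 to 0.020), MIR210HG (-0.054 to 0.48), MIR31HG (-0.13 to 0.46), MIR3936HG (-0.011 to 0.30), MIR4453HG (-0.14 to 0.042), MIRLET7IHG (-0.095 to 0.19) and TUG1 (-0.016 to 0.016). Libraries of the same number correlated in their deviations with r of 0.32, 0.089 and 0.24, each best with its own number, a hint from the data and not the design; with a replicate block 21 snoRNA hosts were lower, and 2 miRNA hosts, with MIR23AHG added.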

Other observations

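Host genes whose symbol holds a hyphen fell outside the rule: of 9 such miRNA hosts 3 passed the filter, and these were higher, as were 32.9% of all tested genes. MIR9-1HG, a host of the neural miR-9, had 16.6, 8.37 and 22.0 normalized counts untreated and 43.1, 54.9 and 55.5 after VPA, a log2 fold change of 1.70 (SE 0.24, adjusted p = 3.41e-06, edgeR). The groups did not overlap. MIR124-1HG, a host of the neural miR-124, had 1.03, 0 and 1.05 normalized counts untreated and 12.4, 11.5 and 24.9 after VPA (adjusted p = 6.61e-06, edgeR), and since it passed the filter only through its VPA counts it had to differ, so this p is no support. MIR4435-2HG had a log2 fold change of 0.34 (SE 0.13, adjusted p = 0.0275, edgeR) with overlapping groups, and the call was lost without untreated 2, untreated 3, VPA 1 or VPA 2 (0.063 to 0.13) and with DESeq2 (0.167). Under the filter, MIR9-3HG had 2 counts untreated and 16 after VPA in all, and MIR1-1HG, a host of the muscle miRNA miR-1, had 0 and 13. Mature miRNAs were not measured in these libraries.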
